A study of Tuber melanosporum with 9 samples.

Results

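Gypsy elements of over 700 and up to 4000 bp were examined in the black truffle Tuber melanosporum. The members were all repeats that the deposited repeat table places in class Gypsy and lists with a length of over 700 and up to 4000 bp, with no measured value used to choose them. They number 5746 of the 13248 Gypsy elements (43.4%), of the 27168 transposable elements (TEs) with a class, and of the 45028 repeats in all. Bisulfite sequencing of 5 libraries gave DNA methylation and sequencing of 4 libraries gave RNA, with 1 library per condition, to compare life stages and the response to a methylation inhibitor. The fruitbody (FB) was a mature truffle collected in Auvergne whose strain is not stated, and the free-living mycelium (FLM) was a culture of the strain Mel28 on malt agar. The ectomycorrhiza (ECM) library came from inoculated root tips of hazel, Corylus avellana, and so also holds plant cells. It has no matching RNA. The untreated and the treated library were FLM of isolate Tmel28 in synthetic liquid medium, labelled wild type, given water or 100 µM 5-azacytidine (5-aza) every 5 days for 45 days. These liquid cultures are given below as untreated and treated FLM, or as values without and with 5-aza. Stage, strain and growth medium vary together between FB and the mycelia and cannot be told apart.

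Gypsy elements are retrotransposons that move through an RNA copy. They are bounded by long terminal repeats (LTRs), which hold the promoter, and an intact copy codes for a capsid protein and for the protease, reverse transcriptase, RNase H and integrase that turn the RNA back into DNA and insert it. Many genomes carry mostly broken copies, and in fungi such as Neurospora crassa, as in plants, cytosine methylation lies mainly on repeats and goes with low transcription of them. Cytosines are read here in 3 contexts, CG, CHG and CHH, where H is A, C or T. 5-aza is a cytidine analog that is built into nucleic acids and traps DNA methyltransferases.

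Members had a median length of 1474.5 bp, made up 10172.7 kb, and came from 872 families as named in the element identifiers, 237 of them with 1 member. By the label in the family identifier, 4652 come from families labelled incomplete LTR and 850 from families labelled complete LTR. The others carry other labels. All copies of a family share its label, which does not give the state of each copy. On the plus strand lie 2830 members, against 2916 on the minus strand. They spread over 349 of the 398 scaffolds of the v1.0 assembly, and they were far from genes. The median distance to the nearest annotated gene was 20441 bp, against 16817 bp for all classified TEs. A gene was overlapped by 26 members, and 84 more (1.46%) lay within 1 kb of one, against 4.02% of all classified TEs. Gypsy elements of over 4000 bp were as far from genes, at 20423.5 bp with 0.86% within 1 kb. Those of up to 700 bp were at 18970 bp with 2.23%. The share of bases listed as a cytosine on either strand in any library, which stands for GC content here, had a median of 39.6%. The ratio of observed to expected CG pairs was 0.478, close to the 0.474 of short Gypsy elements of up to 700 bp and to the 0.476 of all classified TEs, while the 3370 long Gypsy elements of over 4000 bp were at 0.672. Of the members, 142 overlapped another classified TE, and 66 overlapped another member, so that they share bases.

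The mean depth per listed cytosine was 20.1 reads in FB, 19.9 in FLM, 1.35 in ECM, and 7.35 without and 8.64 with 5-aza. Reads on genes in the RNA libraries ranged from 21802480 to 23816308. A methylation level is the mean of per-cytosine levels where a cytosine has 4 reads or more (in ECM, 1 read), in members with at least 4 such cytosines. Between 5300 and 5724 members had a CG level in a library, with a median of 54 CG sites in FB, 56 in FLM, 18 in ECM, and 33 without and 40 with 5-aza. Intervals given below are 95% intervals that cover counting over members alone. No test between conditions was possible with 1 library each, and no p-value is given.

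Members were heavily methylated at CG sites and lightly at the other contexts in every library. The median CG level was 85.2% in FB (interval 85.0 to 85.5), 86.0% in FLM, 82.1% in ECM, and 89.1% without and 89.0% with 5-aza. The corresponding medians over all classified TEs were 83.0%, 83.7%, 78.5%, 87.0% and 87.2%, and those of annotated genes did not pass 0.49% in any library. Members lay above the TEs as a whole in each library. The gap was wider in the lower tail. The 5th percentile of members was 59.5% in FB and 58.1% in FLM, against 0.40% and 0.168% over all classified TEs, as the plot of level distributions shows.

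**Figure D1:**
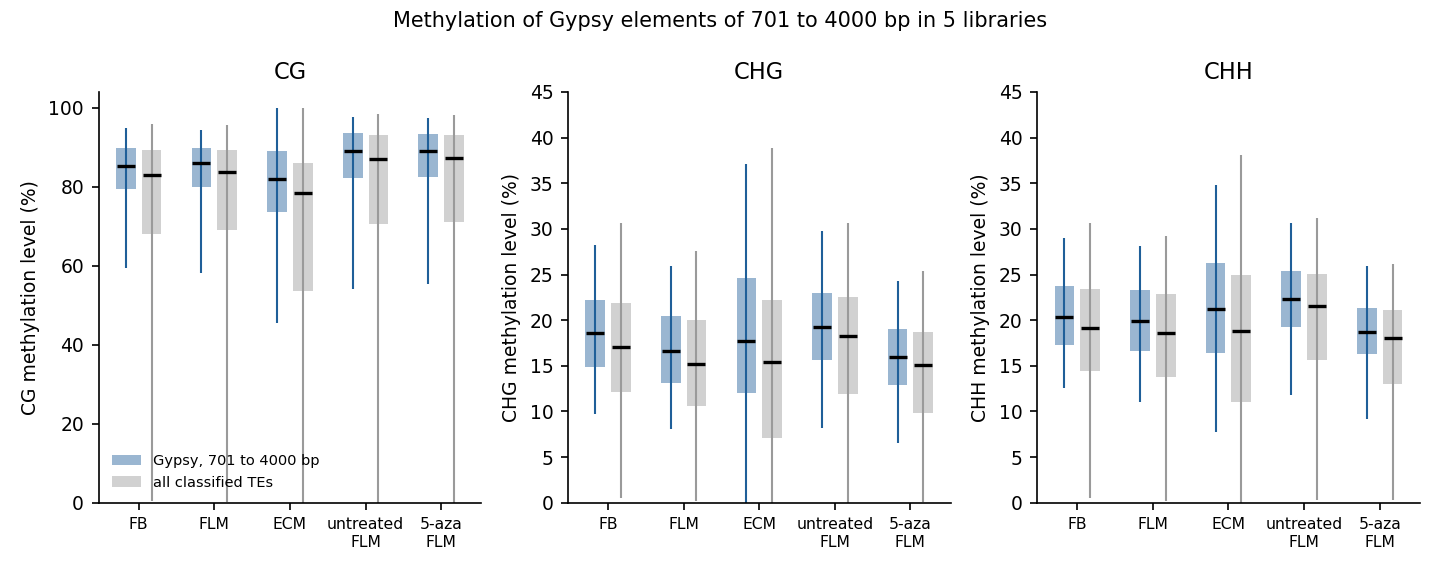
Methylation level in percent (y axis) by library (x axis) for CG, CHG and CHH, with black bars at the median, boxes from the 25th to the 75th percentile and lines from the 5th to the 95th, for members (blue) and all classified TEs (grey). Member CG medians lie between 82.1% in ECM and 89.1% in untreated FLM, and the CHG and CHH medians of treated FLM are the lowest of the 5 libraries.

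In the CHG context the medians were 18.6% in FB, 16.7% in FLM, 17.8% in ECM, and 19.3% without and 15.9% with 5-aza. In the CHH context they were 20.4%, 19.9%, 21.2%, 22.3% and 18.7% in the same order. No member passed 80% CHH in any library. Levels differed more by the base after the cytosine than between libraries. At CHH sites followed by A the mean level over sites in members was 27.6% in FB and 28.4% in FLM, at sites followed by C it was 21.0% and 20.5%, and at sites followed by T it was 11.6% and 9.71%. The order A, C, T held in all 5 libraries and also at CHG sites, where the FB means were 21.6%, 16.3% and 14.8%.

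CG levels changed little with length, and CHH levels were lower in members far from genes. By length, the median CG level in FB was 87.0% up to 1000 bp, and 84.3%, 85.6%, 85.0% and 84.4% in the next bins, which end at 1500, 2000, 3000 and 4000 bp. The median CHH level in FB was 22.1% in members over 1000 and up to 5000 bp from a gene and 19.3% in those farther than 20000 bp. In untreated FLM these CHH medians were 25.1% and 21.2%. Across members with a gene on their scaffold, the Spearman correlation of the CHH level with the distance was -0.31 in FB (n = 5454). Over all members with a CHH level, that with GC content was -0.47 (n = 5737). These points share libraries and base composition, and GC content was not held fixed.

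The largest families were all heavily methylated. The 6 with most members were G14518 with 172 members, P171.3 with 135, G9117 with 119, R1452 with 108, G13602 with 103 and R5 with 85. Their median CG levels in FB were 89.5%, 86.8%, 89.5%, 82.3%, 86.7% and 84.8%. Of these 6 families, R1452 alone had a member below 10% CG in FB, and it had 1. Among the 51 families with at least 20 members, which hold 2487 members, 49 had a median CG level above 70% in FB. The exceptions were R1921 at 0.41% and R915 at 1.15%, the next lowest family being at 75.6%.

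A small set of members was almost free of CG methylation. The count below 10% CG was 131 of 5716 in FB (2.29%, interval 1.92 to 2.71), against 14.7% of all classified TEs. It was 108 of 5724 in FLM (1.89%, all TEs 14.0%), 125 of 5300 in ECM (2.36%, all TEs 15.9%), 108 of 5653 in untreated FLM (1.91%, all TEs 14.3%) and 109 of 5695 in treated FLM (1.91%, all TEs 14.1%). Members were thus unmethylated far less often than TEs as a whole in each library. The share in FB was 8.99% of short and 0.39% of long Gypsy elements. Within the members it did not fall steadily with length, at 3.72% up to 1000 bp and 2.25%, 1.23%, 1.43% and 2.73% in the next bins of the length series above. Of 5640 members with a level in FB, FLM, untreated and treated FLM, 101 were below 10% in all 4 of them and 139 in at least 1.

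The 131 members below 10% in FB came from 36 families on 56 scaffolds, and 79 of them were from 2 families, R1921 with 58 and R915 with 21 (60.3%). As a set they differed from the other members in base composition. Their median GC content was 46.5% against 39.6%, and their ratio of observed to expected CG pairs was 0.706 against 0.476. The families were not alike in this. The 59 R1921 members had medians of 53.3% and 0.819, and the 38 R915 members 42.2% and 0.486. Medians of the low members without R1921 were not computed. Bisulfite depth of the 131 members, relative to the mean over all classified TEs, had a median of 1.89 against 1.10 in FB. GC content rests on listed cytosines, and the part of depth in it and in the levels was not tested. The other contexts were low with them, with a median CHH level of 0.52%, and 127 of the 131 were below 5% CHH. None overlapped a gene and 1 lay within 1 kb of one.

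Family R1921 was unmethylated in every stage. It has 59 members, with a median length of 971 bp, among 157 Gypsy copies of any length, and its family label is incomplete LTR. Of the 59, 58 were below 10% CG in each of the 5 libraries, with family medians of 0.41% in FB, 0.27% in FLM, 0% in ECM, and 0.32% without and 0.33% with 5-aza. The exception was the copy at scaffold_31:377349-378165, at 92.4% in FB, 68.2% in FLM, 63.3% in ECM, and 65.5% without and 71.9% with 5-aza. Copies outside the length range were alike, since 148 of the 154 copies of any length with a level were below 10% in FB. R1921 members had a GC content of 53.3% and an observed to expected CG ratio of 0.819. They lie on 23 scaffolds, 18 of them on scaffold 33 within 679 kb, and the nearest to a gene is 2484 bp away.

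Low methylation around R1921 did not stop at the listed ends of its members. Other repeats in the flanks, and any further R1921 copies, were not left out, and their part in the flank levels was not tested. In FB the mean CG level over sites was 0.73% inside, 1.58% in the 1 kb before and 3.13% in the 1 kb after, and in FLM it was 0.79%, 1.59% and 3.38%. For members outside R1921 and R915 the FB means were 82.2% inside, 73.8% before and 73.7% after. The plot of levels along the elements shows these other members higher inside than outside, and R1921 low throughout.

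**Figure D2:**
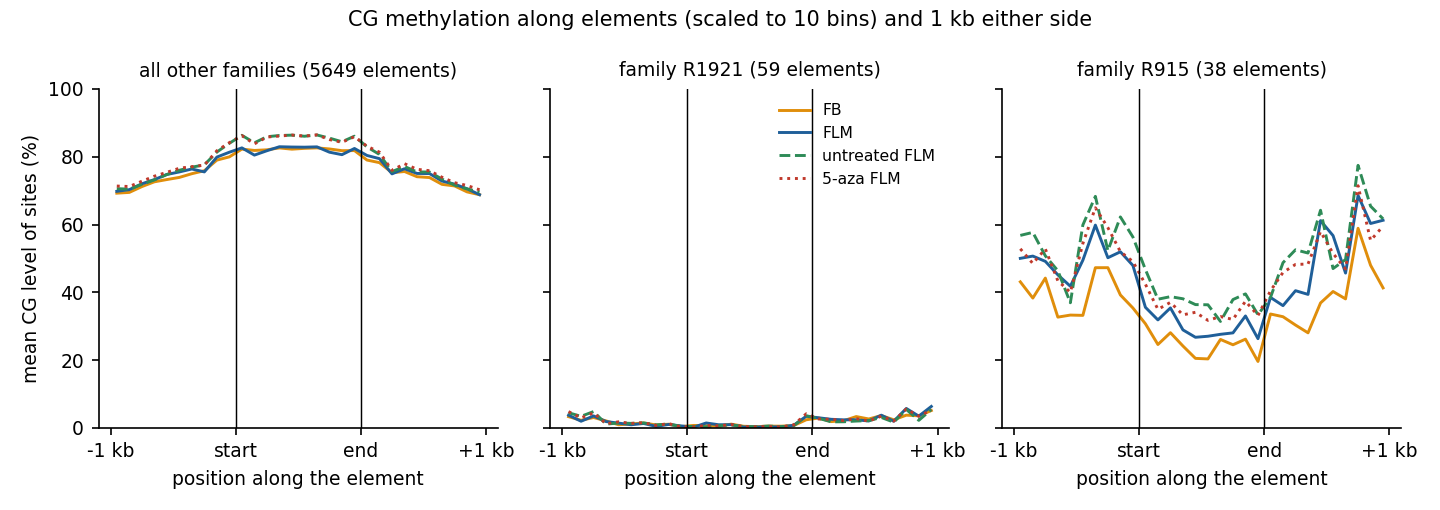
Mean CG level of sites in percent (y axis) along members scaled to 10 bins between start and end and over 1 kb on either side in 100-base bins (x axis), for 5649 members of other families, 59 of R1921 and 38 of R915, with a line for each of 4 libraries. R1921 stays low from 1 kb before to 1 kb after its copies, other members are higher inside than outside, and R915 is lower inside than in its flanks.

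Family R915 was split. Its 38 members, from a family labelled complete LTR with 77 copies of any length, lie on 19 scaffolds. They are 770 to 3173 bp long, so the label does not describe each copy. The count below 10% CG was 21 in FB, 16 in FLM, 25 in ECM, and 15 without and 16 with 5-aza, and 15 members were below it in FB and in all 3 mycelia. A further 16 were above 50% in FB, FLM and untreated FLM. The copy at scaffold_178:68200-69924 had CG levels of 0.88% in FB, 84.2% in FLM, 6.03% in ECM, and 87.7% without and 86.8% with 5-aza. The copy at scaffold_178:70111-70995, 0.08% in FB and 0% in ECM, was at 81.9%, 80.8% and 82.9% in FLM, untreated and treated FLM, and the copy at scaffold_155:49615-50448 was at 0.19%, 77.5%, 0%, 81.7% and 76.0% in the order FB, FLM, ECM, untreated and treated. The ECM values of these copies rest on 58, 9 and 19 sites. In all 3 FB and ECM were low while all 3 mycelia were high.

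A different R915 group was low in ECM alone. The copy at scaffold_1:1367895-1370369 was at 73.2% in FB, 74.6% in FLM, and 88.1% without and 85.9% with 5-aza, and at 0% in ECM over 56 sites. Its neighbor at scaffold_1:1370627-1373038 was at 63.4%, 57.3%, 75.2% and 74.8% in the same 4 libraries and at 4.43% in ECM over 64 sites. Copies at scaffold_146:194451-195499 and scaffold_146:209827-212420 were at 6% and 0.67% in ECM against 82.5% and 67.0% in FB. Across all families, 7 members were below 10% in ECM and above 50% in the other 4 libraries, and these 4 R915 copies are those among them with at least 20 ECM sites. No member showed the opposite. These counts were not made over all classified TEs. ECM had a mean depth of 1.35 reads, and the part of depth in these values was not tested.

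The CG difference between FB and FLM was small for most members. The median of FB minus FLM was 0.26 points (interval 0.13 to 0.39), with 52.6% of 5712 members positive, against 0.27 points over all classified TEs. In the CHG context the median difference was 1.67 points, higher in FB in 76.2% of members, and in the CHH context it was 0.40 points, or 0.80 points with reads pooled over each member. All classified TEs had 1.29 and 0.36 points. By next base the FB excess was 3.16 points at CHG sites followed by T and 1.86 points at CHH sites followed by T, while CHH sites followed by A were 0.78 points lower in FB. The CG levels of members in FB and FLM had a Spearman correlation of 0.551 over 5714 members, with base composition and copy placement shared between both axes.

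A member was called different by its FB minus FLM difference in CG. The difference had to lie outside the central 95% of a normal distribution with the mean and SD of all classified TEs. It also had to be at least 20 points. The first condition alone asked for over 26.0 points either way, so the 20-point condition removed no member. The rule gave 124 of 5712 members. Of these, 86 were lower in FB (1.51%, against 3.54% of all classified TEs) and 38 higher in FB (0.67%, against 2.13%). Both shares were below those of the TEs as a whole. With at least 10 reads per cytosine the higher count became 75, and with at least 30 points it became 21. The plot of CG levels in FB against FLM shows a dense cloud at high levels in both, with the called members spread along both edges.

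**Figure D3:**
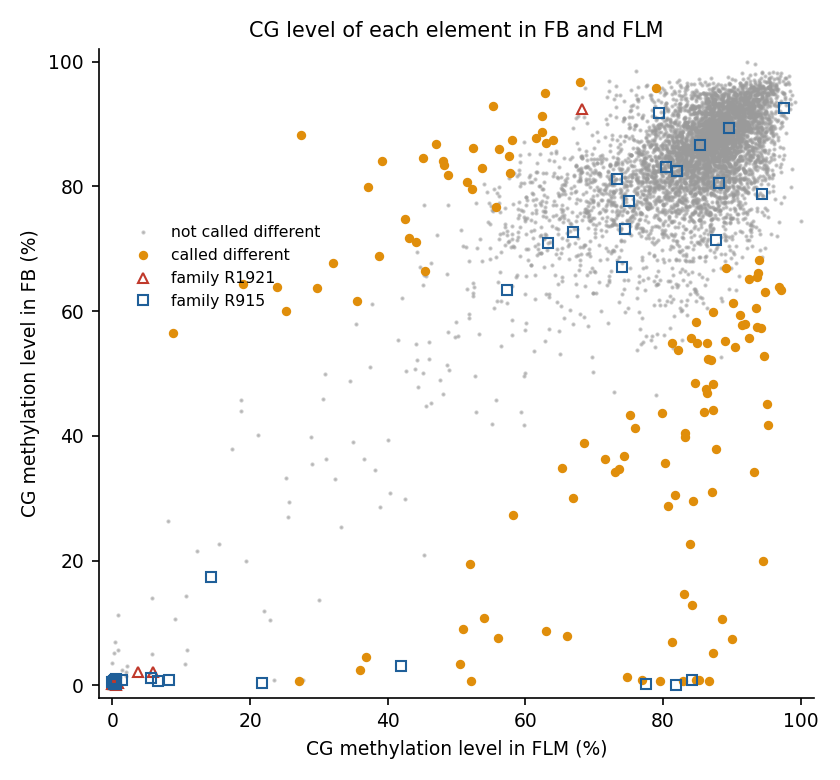
CG level of each member in percent in FB (y axis) against FLM (x axis), with members called different in orange, family R1921 as red triangles, family R915 as blue squares and all others in grey. The called members lower in FB reach 0% in FB at high FLM levels, whereas R1921 copies sit near 0% in both libraries apart from 1 copy.

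The 86 members lower in FB came from 64 families on 50 scaffolds, and 23 of them were below 10% CG in FB. Their medians were 37.4% in FB, 84.5% in FLM, 42.7% in ECM, and 87.8% without and 87.7% with 5-aza. FB was used in the rule and so were the FLM values, but the liquid cultures were not. Untreated FLM lay nearer to FLM than to FB in 81 of 82 members with a level. ECM lay nearer to FB in 42 of 74. Relative depth in these members was 1.54 in FB, 1.09 in FLM and 1.15 in untreated FLM, and the part of depth in the difference was not tested.

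The members with the largest called loss in FB were nearly free of CG methylation there. G8771 at scaffold_1:2286933-2290000, a member 1229 bp from the nearest gene, was at 0.62% in FB, 86.7% in FLM, 36.5% in ECM, and 95.4% without and 94.4% with 5-aza over 124 shared sites. It lies within R697 at scaffold_1:2286933-2290616, at 5.26%, 87.3%, 45.7%, 94.5% and 94.1%, so these values share cytosines. Both were low in FB alone, with ECM between FB and the mycelia.

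On scaffold 230 all 6 called members of 15 on the scaffold were lower in FB. G10407 at scaffold_230:125064-127057 was at 0.84% in FB, 85.3% in FLM, 22.7% in ECM, and 85.4% without and 84.0% with 5-aza, and G13456 at scaffold_230:110078-112207 was at 0.68%, 83.0%, 10.0%, 82.1% and 85.4%. R697 at scaffold_214:2-1539 was at 0.79%, 84.8%, 26.8%, 90.6% and 86.4%. The copy of R915 on scaffold 178 described above completed the 6 largest. In each of them the 3 mycelia were above 80%. Called members were also grouped on scaffold 64, with 8 of 45, and on scaffold 1, where 4 of 100 were called, all between positions 2258969 and 2290616. None of the 6 had an RNA read in any library.

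The 38 members higher in FB had medians of 83.2% in FB, 48.5% in FLM, 67.2% in ECM, and 54.9% without and 54.7% with 5-aza. Untreated FLM lay nearer to FLM in 27 of 38, and 37 of the 38 were at most 2000 bp long. The largest was G14284 at scaffold_139:101226-101941, at 88.3% in FB, 27.5% in FLM, and 33.9% without and 32.2% with 5-aza over 19 shared sites, with too few ECM sites for a level. FB stood apart from all 3 mycelia in this member. G12419 at scaffold_64:513483-514483 was at 79.8% in FB and 37.1% in FLM, with untreated FLM between them at 65.4%. G15044 at scaffold_239:95734-96621 was at 56.5% and 8.85%, and G11841 at scaffold_23:106394-107705 was at 64.4% and 18.9%. The other 2 of the 6 largest were G9140 at scaffold_341:2900-3774 (84.0% and 39.2%) and G11947 at scaffold_117:96720-98140 (63.9% and 23.9%).

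Among all members, 17 were below 10% CG in FB and above 50% in FLM, untreated and treated FLM. Of these 17, 15 were below 50% in ECM and 5 below 10%. No member was below 10% in all 3 mycelia and above 50% in FB. Relative coverage also differed between the libraries, since 107 members were at least 2-fold deeper in FLM than in FB and 15 were at least 2-fold deeper in FB. Of the 107, 99 had a CG difference and 10 of these were called different (10.1%), as were 6 of 14 in the other group (42.9%), against 2.17% of all members with a difference. The part of coverage in these calls was not tested. The counts of these patterns and depth groups were not made over all classified TEs, so whether they are particular to members was not tested.

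ECM and the liquid cultures differed from FB and FLM by small amounts. The median CG difference was -1.46 points for ECM minus FB and -1.63 points for ECM minus FLM, with 43.4% and 43.9% of members positive. With reads pooled over each member the ECM minus FLM median was -0.99 points. With at least 4 reads per cytosine the median CG level of ECM was 37.5% over the 33 members left. Untreated liquid FLM was above FLM on agar by 2.26 points in CG, 1.83 points in CHG and 1.79 points in CHH, the medians over members. All classified TEs had 1.89, 1.47 and 1.43 points. At 10 or more reads in both libraries the CHG and CHH differences of members were 1.16 and 0.89 points. Mean depth was 7.35 reads in untreated FLM and 19.9 in FLM. By the study's account, bisulfite reads were also shorter for the liquid cultures than for FLM on agar, and DNA was extracted by another method. The parts of depth, read length and extraction in these differences were not tested.

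After 5-aza, members were lower in CHG and CHH methylation and differed little in CG. The median of untreated minus treated FLM was 0.11 points in CG (interval 0.04 to 0.18, and 0.035 points with at least 10 reads in both libraries), 3.26 points in CHG (3.17 to 3.35) and 3.64 points in CHH (3.57 to 3.71). CHH was lower in treated FLM in 93.0% of 5719 members and CHG in 85.9% of 5587. All classified TEs had medians of 0.00 points in CG, 2.70 in CHG and 3.22 in CHH. Relative to untreated FLM, the median loss was 0.12% in CG, 17.6% in CHG and 16.3% in CHH. The plot of differences by context shows the CG distribution centered at 0 and the CHG and CHH distributions moved to the right of it.

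**Figure D4:**
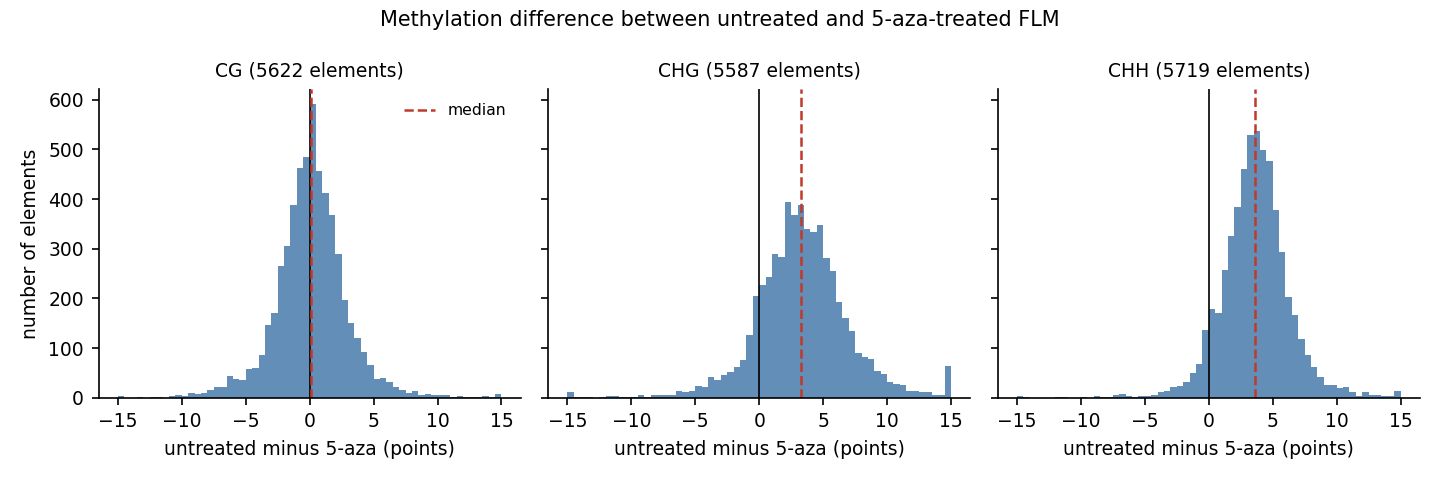
Number of members (y axis) by the difference untreated minus 5-aza-treated FLM in percentage points (x axis, values past 15 points placed in the end bins) for CG, CHG and CHH, with a black line at 0 and a dashed red line at the median. The medians are 0.11 points in CG, 3.26 in CHG and 3.64 in CHH.

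From 10% CHH up, the loss was a near-constant share of the level. In bins of the CHH level in the agar-grown FLM, which was not part of this difference, the median loss was 0.03 points in members below 5%, 2.32 points at 5 to 10%, 2.91 points at 10 to 15%, 3.44 points at 15 to 20%, 3.95 points at 20 to 25%, 4.48 points at 25 to 30% and 4.84 points above 30%. The median relative loss was 7.96% in the lowest of these bins and 22.7% at 5 to 10%, and it stayed between 16.03% and 17.5% from 10% up. By next base the mean level over sites was lower in treated FLM by between 15.2% (CHH sites followed by C) and 17.6% (CHH sites followed by T). In the 51 families with at least 20 members the median CHH loss was positive in all 51 and ran from 0.03 points in R1921 to 4.70 points.

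Of 5719 members, 1500 were at least 5 points lower in CHH in treated FLM (26.2%, against 24.0% of all classified TEs) and 34 were at least 5 points higher (0.59%, against 0.863%). The lower count was close to the background share. In FLM on agar, which the threshold did not use, members with the 5-point loss had a median CHH level of 21.7% against 19.3% in those that moved by less. The share fell with length, from 32.1% up to 1000 bp to 19.4% over 3000 bp, and longer members rest on more sites.

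Among members with at least 50 CHH sites in both libraries, the largest loss was in G12047 at scaffold_59:583799-584715, at 37.7% without and 25.2% with 5-aza, a difference of 16.3 points at the 55 sites with enough reads in both. G6925 at scaffold_65:581826-583623 lost 15.7 points, G11069 at scaffold_39:312159-313060 lost 13.6 points and G13427 at scaffold_21:1081406-1083506 lost 13.3 points. The CG level of these 4 members stayed above 90% in both libraries. The largest gain was in G13064 at scaffold_117:285707-288828, with an untreated minus treated difference of -8.18 points over 52 sites, followed by G11396 at scaffold_57:45607-46861 (-6.76 points), G11581 at scaffold_164:213663-214425 (-6.44 points) and G13444 at scaffold_2:556917-557650 (-6.05 points). None of these 8 members had an RNA read in any library. Most of them had low depth in untreated FLM, where the member median was 5.17 reads per cytosine position. The losses had 2.49, 1.81, 3.29 and 2.11 reads and the gains 1.65, 1.82, 3.30 and 5.39, in the order named. The part of depth in these differences was not tested.

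Few members had an RNA read. At least 1 RNA read was counted for 92 members in FB (1.601%, against 5.27% of all classified TEs), 60 in FLM (1.04%, against 4.23%), 239 in untreated FLM (4.16%, against 8.44%) and 154 in treated FLM (2.68%, against 7.14%). Of these, 61, 33, 204 and 117 had 1 to 9 reads in the same order of libraries. Those with 10 or more reads numbered 31, 27, 35 and 37, a count not made over all classified TEs. By the share with at least 1 read, members were read less often than TEs as a whole in all 4 libraries. Their reads summed to 7194 in FB, 3025 in FLM, and 6177 without and 5743 with 5-aza, of which 63.5%, 72.6%, 84.0% and 86.4% were on R1921. RPKM, the read count scaled by element length and by a library total, passed 1 in 19 members in FB (0.33%, against 0.858%) and 13 in FLM (0.23%, against 0.872%). Without R1921 these counts were 2 and 2. The totals implied by the deposited RPKM are higher for FB than for FLM, the reverse of the order in the study's methods, and with the totals exchanged the counts were 20 and 10.

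Unmethylated members were read more often than methylated ones. In FB 34.4% of the members below 10% CG had a read (45 of 131, interval 26.3 to 43.1), against 1.27% of those from 10 to 80% and 0.70% of those above 80%. In FLM the shares were 40.7%, 0.83% and 0.09%, in untreated FLM 50.9%, 3.56% and 3.24%, and in treated FLM 55.0%, 3.15% and 1.36%. Without R1921 the share below 10% was 15.1% in FB, 24.0% in FLM, and 15 of 50 members without and 31.4% with 5-aza. Members below 10% CG held between 88.6% and 93.5% of the reads on members, R1921 included. Without R1921 they held 1884 of 2624 reads in FB and 632 of 830 in FLM. In the liquid cultures they then held a minority, 280 of 986 reads without and 215 of 781 with 5-aza. Low methylation did not always go with reads, since 59 of the 131 members low in FB had no read in any of the 4 libraries. The counts hold unique alignments only. Median relative bisulfite depth in FB was 1.89 in members below 10% CG, 1.18 from 10 to 80% and 1.08 above 80%. The part of depth and of unique alignment in the shares with a read was not tested. The plot of reads against CG level shows the R1921 copies stacked near 0% and single reads spread over methylated members.

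**Figure D5:**
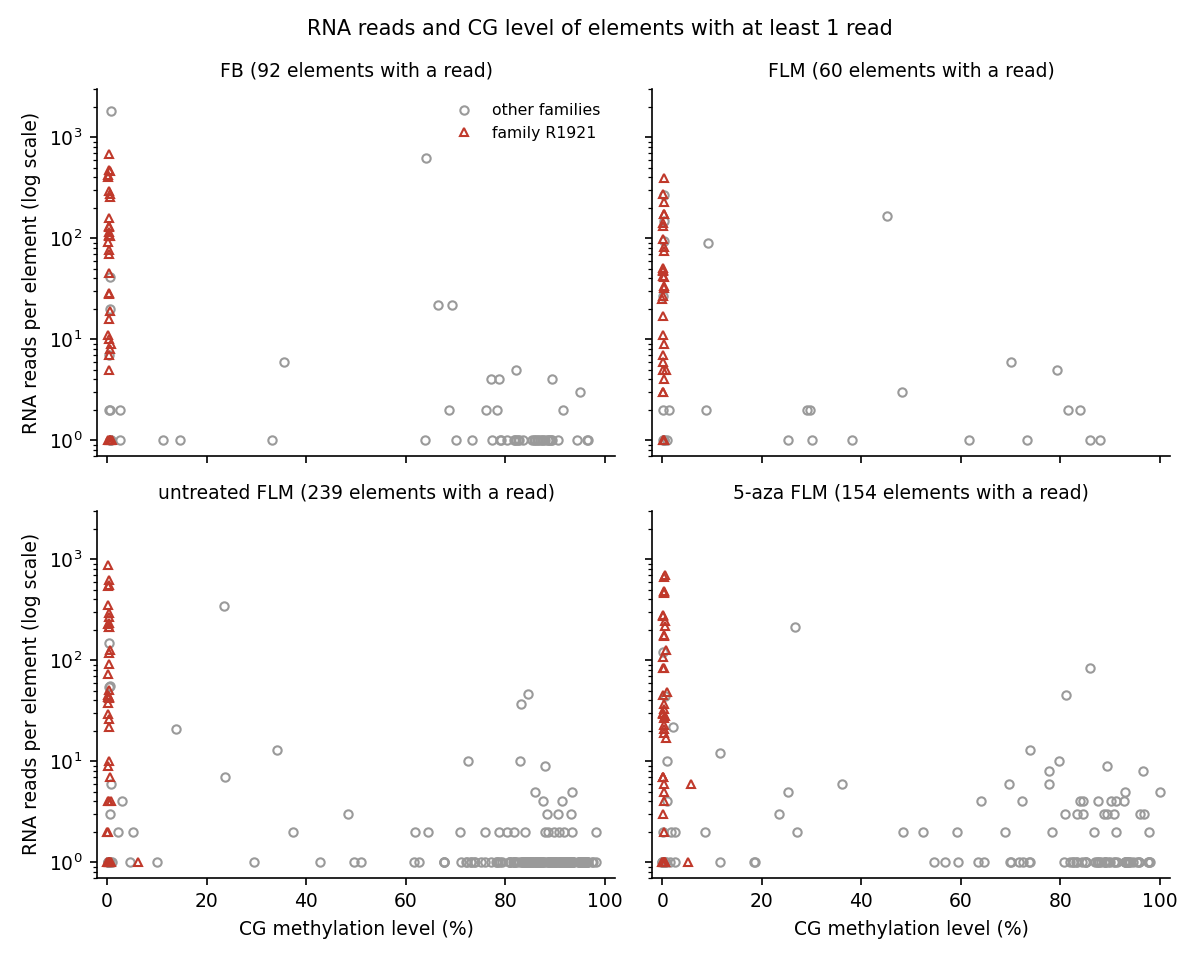
RNA reads per member on a log scale (y axis) against the CG level in percent in the same library (x axis) for members with at least 1 read, with family R1921 as red triangles and other families as grey circles. The members with most reads lie near 0% CG in each library, and above 80% no member has 10 reads in FB or FLM, while 3 do in untreated and 2 in treated FLM.

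R1921 supplied most of this RNA. Its copies held 4570 reads in FB, 2195 in FLM, and 5191 without and 4962 with 5-aza, which is 195, 92.2, 231 and 228 reads per 1000000 reads on genes. A read was found in 34, 32, 40 and 44 of the 59 copies, 27 copies had one in all 4 libraries and 50 in at least 1. FLM on agar was the lowest library by the total. Reads that fit several copies were left out by the authors' counting, so a copy's count depends on how unique its sequence is.

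The copies that carried the reads differed between FB and the mycelia. The copy at scaffold_75:196392-197558 had 685 reads in FB, 1 in FLM, and 2 without and 7 with 5-aza. The copy at scaffold_104:59899-61055 had 426 in FB, 0 in FLM, and 0 without and 3 with 5-aza, at least 145-fold more in FB than in FLM by a floor of 3 reads. Both were read in FB almost alone, at CG levels between 0.09% and 0.81% in all 5 libraries. The copy at scaffold_33:648662-649701 had 277, 272, 870 and 698 reads in FB, FLM, untreated and treated FLM, and the copy at scaffold_22:548170-548901 had 116, 398, 215 and 178. These were read in all 4 libraries.

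The 18 copies on scaffold 33 held 14.4% of the R1921 reads in FB, 46.2% in FLM, and 66.6% without and 67.7% with 5-aza. Among them, scaffold_33:724052-724918 had 92, 229, 559 and 660 reads, scaffold_33:586799-587927 had 45, 174, 627 and 467, scaffold_33:614140-615275 had 130, 141, 542 and 489, and scaffold_33:628675-629639 had 19, 132, 349 and 472. Each of these 4 had its fewest reads in FB. Their bisulfite depth also differed between the libraries. Relative to all classified TEs it was 2.13 to 2.31 in FB, 3.18 to 3.47 in FLM and 2.75 to 3.55 in untreated FLM. The R1921 medians were 2.13, 2.00 and 1.61 in the same order. The part of DNA coverage in the reads was not tested. Copy reads had a Spearman correlation of 0.70 between FB and untreated FLM, 0.74 between FB and FLM, 0.89 between FLM and untreated FLM, and 0.91 between untreated and treated FLM, over 59 copies that share sequence. The FB strain is not stated, so a difference between strains in these copies and a difference between stages cannot be told apart.

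Outside R1921, 15 members had at least 10 reads in some library, and 1 of them, G10600 at scaffold_120:102385-104972, overlaps an annotated gene. The member with most reads was G14358 at scaffold_3:100217-101573, with 1806 reads in FB, 27 in FLM, and 55 without and 22 with 5-aza. It was 68.1-fold higher in FB than in FLM in reads per 1000000 reads on genes, and its RPKM was 18.0 in FB and 0.31 in FLM. Its CG level was 0.79%, 0.09%, 0.59% and 2.25% in those libraries. A second G14358 copy, at scaffold_23:461401-462761, had 41, 1, 1 and 0 reads. Both had most of their reads in FB and were unmethylated in all 5 libraries, as were all 5 members of the family.

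Others were read in the mycelia. G12098 at scaffold_31:893802-896874 had 7 reads in FB, 265 in FLM, and 147 without and 120 with 5-aza, and its copy at scaffold_47:447749-450819 had 20, 93, 54 and 44, both below 1% CG in each library. G11583 at scaffold_126:179365-182840 had 0, 148, 0 and 2 reads and was also below 2% CG throughout. It was read in FLM on agar and hardly in liquid culture. G10061 at scaffold_1:2291421-2294437 had 0, 89, 21 and 12 reads at CG levels of 10.6%, 9.12%, 13.9% and 11.6%, and lies beside the R697 copy of scaffold 1 that was low in FB alone.

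A few methylated members were read too. G6994 at scaffold_93:382102-384656 had 628 reads in FB, 167 in FLM, and 340 without and 214 with 5-aza, at CG levels of 64.1%, 45.1%, 23.5% and 26.7%. Its reads and its CG level were both highest in FB. G11849 at scaffold_27:507496-509154 had 0, 0, 46 and 84 reads at CG levels between 83.7% and 88.1% in these libraries. R1452 at scaffold_53:67865-71009 had 0, 0, 37 and 45, and G9212 at scaffold_161:236675-240387 had 0, 0, 10 and 10, with CG levels from 78.1% to 88.8%. These 3 were read in the liquid cultures alone, with and without 5-aza.

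Changes in reads were described by size, as reads per 1000000 reads on genes, in members with at least 10 reads in 1 of the libraries compared. Of 36 such members, 11 were past 4-fold higher in FB than in FLM (30.6%, against 26.4% of the classified TEs tested) and 7 past 4-fold lower (19.4%, against 23.4%). Both shares were near the background. Without R1921 the counts were 4 and 4 of 9. Between untreated and treated FLM, 0 of 38 members were past 4-fold higher in untreated (interval up to 9.25%, all TEs 1.77%) and 1 of 38 was past 4-fold lower (2.63%, all TEs 4.77%), which was the R1921 copy at scaffold_64:363736-364949 with 0 reads in FB, FLM and untreated FLM and 21 in treated FLM, at least 7.21-fold more than untreated. The 1500 members that lost at least 5 points of CHH held 68 reads in untreated and 65 in treated FLM, with a read in 50 and 24 of them. The members that moved by less than 5 points held 6108 and 5678 reads, with a read in 188 and 130 of them, and all classified TEs with a read numbered 2294 and 1940.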

How the data were processed

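Bisulfite files hold the deposited counts of methylated reads and all reads per cytosine, which the authors made with BS Seeker against the v1.0 assembly of T. melanosporum (version not given in the sources used here). RNA tables hold read counts per gene and TE that the authors made with TopHat2 2.0.4 and HTSeq 0.5.4p3 per the submitters' processing notes, from unique alignments within a single gene or TE, and the deposited RPKM. RPKM was used for FB and FLM as deposited, although the library totals it implies are in the reverse order of those in the study's methods, and 4 RPKM columns of the 5-aza tables that name no sample were not used. The authors' columns of log2 ratios, p-values and adjusted p-values were not used. Cytosines are numbered from 0 in the FB, FLM and ECM files but from 1 in both 5-aza files, and members span from the listed start plus 1 to the listed end.

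Levels, medians with order-statistic intervals and shares with exact binomial intervals (95%) were computed with pandas 2.3.3, scipy 1.17.1 and numpy 2.4.6 in Python 3.11.15. Plots were drawn in matplotlib 3.10.9. The steps were tested on simulated data. Reads carry no molecular identifiers, so intervals cover counting error only. Gene positions were found for 7420 of 7496 genes. Reads between libraries were scaled by reads on genes, and a library at 0 was set to a floor of 3 reads. Members named are the 8 with most reads per kilobase in any RNA library (used in place of RPKM, which was not to hand for all 4), the 6 with the largest called CG difference each way, the 4 with the largest CHH loss and gain, the 5 largest past 4-fold and the 6 largest families. Other named members were chosen after their values were seen. The members and lists were chosen with earlier results of these data known. Sequence windows, identity between copies and counts of TpA were not analysed here, since no genome was used. Alternatives are given in the closing section.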

Additional observations from a re-analysis of the deposited data

How the results depend on the processing

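Of 179 alternative values, 99 stayed close to the value reported and 80 moved past its counting interval or by over 1.5 times. Levels and counts have no direction to turn. Only the alternatives to median differences could turn direction, and 0 did. The cause of a move was not tested except where the alternative takes fewer members. Alternatives without R1921, those for ECM minus FB, ECM minus FLM and untreated minus FLM, the thresholds for CHH gains and the exchanged RPKM totals were chosen after seeing the data. With 1 read per cytosine, median CG levels were 85.0% in FB, 85.8% in FLM, and 88.6% without and 88.4% with 5-aza, CHG levels 18.4% in FB, and 19.1% without and 15.8% with 5-aza, and the CHH level of FLM 19.7%. With 10 reads they were 85.8% CG in FLM and 89.4% CG in treated FLM, 19.1% CHG in FB and 17.0% in FLM, and 21.0% CHH in FB, 20.4% in FLM, and 21.9% without and 18.6% with 5-aza. With pooled reads they were 85.0% CG in FB and 85.7% in FLM, 19.1% CHG in FB, 16.9% in FLM and 19.5% in untreated FLM, and 21.1% CHH in FB and 20.4% in FLM. With 4 reads in ECM its medians were 37.5% CG, 12.5% CHG and 16.7% CHH, with 16 members below 10% CG.

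Median differences with 10 reads in both were 1.77 points CHG and 0.31 points CHH for FB minus FLM, 1.80 CG, 1.16 CHG and 0.89 CHH for untreated minus FLM, and 0.035 CG and 3.41 CHG for untreated minus treated FLM. With pooled reads they were 2.16 CHG and 0.80 CHH for FB minus FLM, -0.83 CHG and 0.15 CHH for ECM minus FB, -0.99 CG, 1.11 CHG and 0.88 CHH for ECM minus FLM, 2.997 CG and 1.25 CHH for untreated minus FLM, and 3.55 CHH for untreated minus treated FLM.

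Members below 10% CG numbered 37 in FB, 27 in FLM, 35 in ECM, and 27 without and 26 with 5-aza over 2000 bp, and 73, 50, 67, 50 and 51 without R1921. Members called lower in FB numbered 57 up to 2000 bp and 29 over 2000 bp. Those called higher numbered 21 at 30 points, 75 at 10 reads and 1 over 2000 bp. CHH losses numbered 4387 at 2 points, 100 at 10 points and 417 over 2000 bp, and gains 112, 6 and 2. Members with RPKM above 1 numbered 1 in FB and 2 in FLM over 2000 bp, 2 and 2 without R1921, and 6 in FLM at RPKM above 2. Members higher in FB than in FLM numbered 19 at 2-fold, 0 over 2000 bp and 4 without R1921, and those lower numbered 3 up to 2000 bp, 4 over 2000 bp and 4 without R1921. Members higher in untreated than in treated FLM numbered 3 at 2-fold, and those lower numbered 2 at 2-fold, 0 over 2000 bp and 0 without R1921. No paired analysis was possible because each condition has 1 library. In ECM, at a mean depth of 1.35 reads per listed cytosine, 33 members kept a CG level at 4 reads per cytosine.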
